A study of Homo sapiens with 12 samples.

Results

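The forkhead genes are described here in HT1376, an established human bladder cancer cell line. All genes of the count table whose symbol is FOX followed by a subfamily letter from A to S, a number and an optional A or B were taken, and FOXP3, the gene targeted in the study, was left out. This gave 45 of 60666 genes. RNA was sequenced from HT1376 CT, a CRISPR control line that the labels call wild type, and from HT1376 FOXP3 KO, made with guides to exon 2 of FOXP3, while the control guide was aimed at luciferase, a gene these cells lack. Each line was either left without treatment or kept in IFNγ (100 ng/mL) over 48 hours, and each of the 4 groups has 3 libraries, which the labels number 11, 12 and 13. Both lines are single-cell clones, so a difference between clones and an effect of the FOXP3 edit cannot be told apart, and the sources do not say whether the 3 libraries of a group came from separate cultures, so p-values measure the spread between these libraries.

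Forkhead proteins share a winged-helix DNA-binding domain and recognise closely related core motifs, so several members can bind the same site in a cell that has them together. FOXO proteins are held in the cytoplasm by AKT signalling and switch on stress and cell-cycle-arrest genes, FOXM1 drives genes of mitosis, FOXK and FOXP proteins mostly repress, and FOXA1 opens chromatin for GATA3 and PPARG in luminal urothelium. FOXP3 is best known as the lineage factor of regulatory T cells, and the study asked how it acts on CD274, which encodes PD-L1, in bladder cancer cells.

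FOXP3 itself had 8 counts over the 12 libraries, 0 in 8 of them and at most 3 in any. Its transcript was thus at the floor in both lines and could not check the labels. The deepest library, of untreated HT1376 CT with 39270042 counts, had 0. The study, in contrast, reported high basal FOXP3 in HT1376 by flow cytometry. It compared FOXP3 in the 2 lines by qPCR, Western blotting and flow cytometry. The total counts ranged from 4490684 to 39270042 per library. Of 13 urothelial and epithelial markers 11 were expressed in each group, and their summed level was 4395 to 5677 TMM-normalised CPM, the count scaled to a fixed library size and called CPM from here on. Of 10 T cell markers only IKZF2, a gene that HT1376 cells also use, and CD3E passed 1 CPM as a group mean, and CD2, IL2RA and CTLA4 had no count. The 6 fibroblast markers, chosen to look for another cell type, differed between the lines. Their summed level was 22.0 to 45.1 CPM in the 6 HT1376 CT libraries and 147 to 281 in the 6 HT1376 FOXP3 KO libraries. At an adjusted p under 0.05 (edgeR), 3 were higher in untreated HT1376 FOXP3 KO, LUM and DCN most, and 2 lower, COL1A1 and THY1. Over all genes 14% were higher and 18.2% lower. PDGFRA was at a mean of at most 0.173 CPM in each group. None of 4 endothelial markers passed 1 CPM as a group mean. Their part in the differences between the lines was not tested. In these bulk samples, fewer cells that use a gene and less RNA per cell cannot be told apart. The libraries numbered 12 stood apart within their groups, and counts of calls are given with and without them.

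The study looked for forkhead motifs in the 3000 bases that end just before the start codon of CD274, at chr9:5453114-5456113 of GRCh38, mostly in intron 1 of the gene. The study searched for A/G T/C AAACA and TGTTTAC, so its list of putative sites differs from the matches counted here. In the reference sequence of this region the motif TAAACA occurred 9 times on either strand. TGTTTAC occurred 2 times, each time overlapping a TAAACA match on the other strand. Of these sites 8 are shown, because they are the letters through which a forkhead protein present in HT1376 could meet this locus. They are printed on the plus strand with the TAAACA letters, read on either strand, in capitals. In the fifth and the sixth the c after the capitals completes TGTTTAC.
chr9:5453280-5453307: aaccagtgacaTAAACAgaccaaaaaat
chr9:5453335-5453362: ataatatttttTAAACAatgggtgaaaa
chr9:5454125-5454152: acttggtctgcTAAACAttctacggttt
chr9:5454386-5454413: tttcctgtgtcTAAACAcacacacacac
chr9:5454465-5454492: tactttctatgTGTTTAcaaaatcagta
chr9:5454898-5454925: catctttcataTGTTTAcatgtcacctg
chr9:5455507-5455534: gtagaagaatcTGTTTAttgagagaata
chr9:5456039-5456066: gtcatattgtaTGTTTAattattaagtg

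The same letters were looked for in the promoters of the forkhead genes themselves, from 250 bases before to 50 bases after the start (RefSeq, GRCh38.p14). The table held 44 entries for 33 of the 45 genes, and 5 entries (11.4%) contained TAAACA on either strand, against 4325 of all 35116 promoters (12.3%). The share was thus close to that of promoters in general. The matches in FOXP1, FOXO3 and FOXO4 are shown because the transcripts of these genes differed between the lines. They are printed on the gene's own strand, with capitals as above, and the first FOXP1 sequence and that of FOXO4 also hold TGTTTAC on one or the other strand. The FOXP1 sequences belong to separate starts of the gene. A match describes letters in the reference and is not evidence of binding.
FOXP1 chr3:71245254-71245281: aactatgttatTGTTTActttaccatac
FOXP1 chr3:71065007-71065034: gcggcgcggggTGTTTAgaggcgggttg
FOXO3 chr6:108560673-108560700: cgagcgaaacaTAAACAaacgcacgcac
FOXO4 chrX:71095864-71095891: ccggcgagtggTAAACAgagacgtcagg

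Which forkhead genes HT1376 expresses was asked first. A gene was called expressed when its mean normalised CPM reached 1 in at least 1 group, and 20 of the 45 genes did. They were FOXC1, FOXD1, FOXF2, FOXI1, FOXJ2, FOXJ3, FOXK1, FOXK2, FOXL1, FOXM1, FOXN2, FOXN3, FOXO1, FOXO3, FOXO3B, FOXO4, FOXO6, FOXP1, FOXP4 and FOXQ1. Another 9 were low, among them FOXA3, FOXD2, FOXD4, FOXE3, FOXF1, FOXH1, FOXN1 and FOXP2. In 8 some library had a count but none had more than 3 (FOXA1, FOXB1, FOXC2, FOXD3, FOXI3, FOXJ1, FOXL2 and FOXN4), and 8 had no count in any library (FOXA2, FOXB2, FOXE1, FOXI2, FOXO1B, FOXR1, FOXR2 and FOXS1). The 16 genes of the last 2 classes were at or below 3 counts in every library.

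FOXA1, the pioneer factor named as a marker of the family in urothelium, was therefore at the level of FOXP3. It had 6 counts in all, at most 2 in a library, and its normalised level was 0.0585, 0 and 0 CPM in untreated HT1376 CT and 0.0857, 0 and 0 CPM in untreated HT1376 FOXP3 KO (libraries 11, 12 and 13, the order used throughout). Under IFNγ it was at 0, 0 and 0.0559 CPM in HT1376 CT and at 0.134, 0 and 0 CPM in HT1376 FOXP3 KO. The groups overlapped, and no difference was detectable. FOXA2 had no count and FOXA3, the remaining member of that subfamily, had 56 counts in all. The transcription factors that act with FOXA1 in luminal urothelium were present. GATA3 averaged 165 ± 18.1 CPM (SD, n = 3) in untreated HT1376 CT and 102 ± 5.08 in untreated HT1376 FOXP3 KO. PPARG averaged 20.1 ± 2.72 and 54.1 ± 8.45 CPM.

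**Figure D1:**
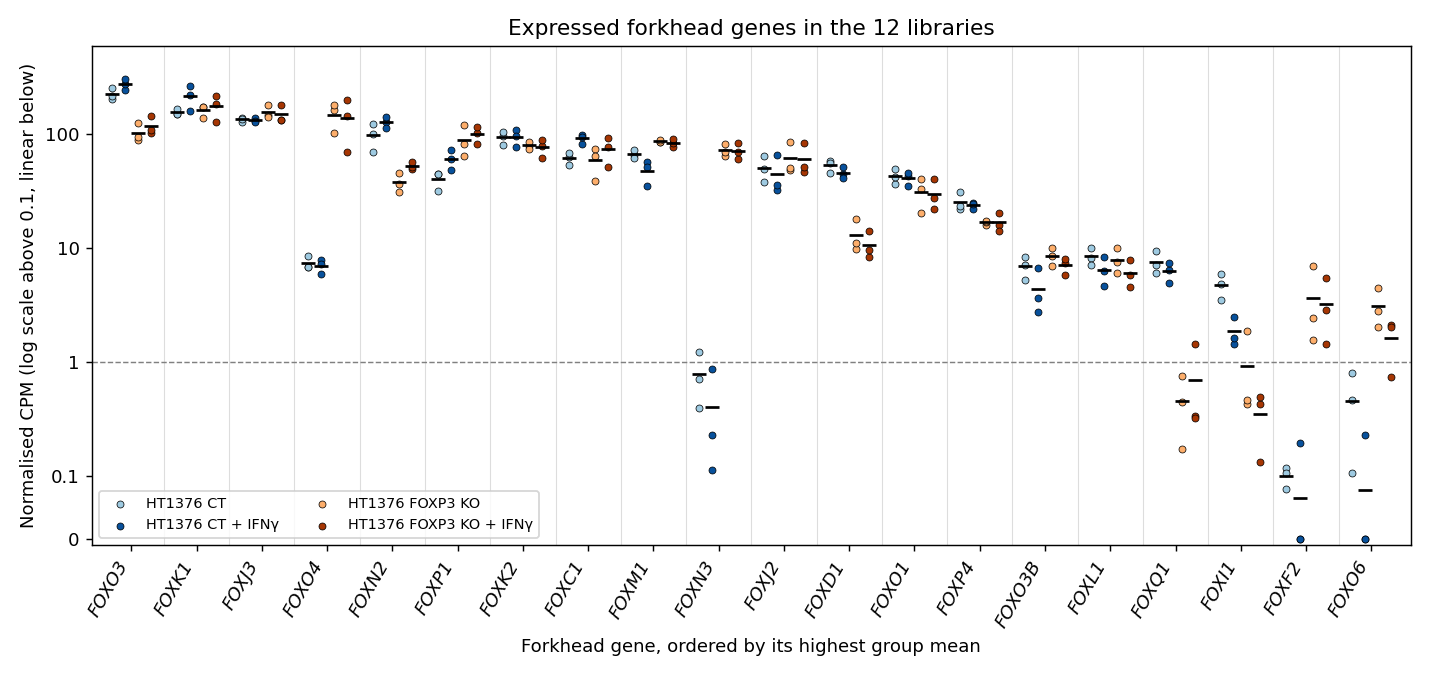
Normalised CPM (vertical axis, logarithmic above 0.1 and linear below) of the 20 expressed forkhead genes, with a point for each of the 12 libraries and a bar for each group mean; the dashed line is the threshold of 1 CPM. By group mean, FOXN3, FOXF2 and FOXO6 lie below 1 CPM in both HT1376 CT groups and above it in both HT1376 FOXP3 KO groups, and FOXQ1 and FOXI1 lie the other way round.

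Levels of different genes were compared as CPM per kilobase of the canonical transcript. In untreated HT1376 CT, FOXO3 came first with 31.0 ± 3.88 CPM per kb and FOXJ3 second with 26.0 ± 1.07, and the ranges of these genes did not overlap. FOXD1, FOXM1, FOXN2, FOXK2, FOXC1 and FOXK1 followed at 21.3 to 14.0 CPM per kb, each overlapping the next. FOXP1 was at rank 11 with 5.67 ± 1.03 and FOXP4 at rank 12 with 4.26 ± 0.801 CPM per kb. These ranks depend on the length used. Over the union of all annotated exons FOXP1 was at 1.24 CPM per kb, below FOXP4 at 3.16, and FOXK2 was at 9.45, so the order of these genes and the FOXP and FOXK shares of the sum are tied to the canonical transcripts. In untreated HT1376 FOXP3 KO the order began with FOXO4 (41.1 ± 11.4 CPM per kb), which was at rank 15 in HT1376 CT with 2.04 ± 0.250. FOXJ3 was second there with 30.1 ± 3.93 CPM per kb, overlapping FOXO4, and FOXM1 followed with 24.5 ± 0.637. FOXO3 was at rank 7 with 14.2 ± 2.83 and FOXN3 at rank 10 with 9.03 ± 1.19 CPM per kb.

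Summed over all 45 genes, the forkhead level was 200.3 ± 13.9 CPM per kb in untreated HT1376 CT and 215 ± 4.92 in untreated HT1376 FOXP3 KO, with overlapping ranges. The composition of that sum differed more than its size. FOXO genes held 20.9% ± 1.33 of it in untreated HT1376 CT (19.4% to 21.9%) and 29.8% ± 3.88 in untreated HT1376 FOXP3 KO (25.7% to 33.4%). The FOXD share was 10.7% ± 1.22 and 2.47% ± 0.817, and the FOXP share was 4.97% ± 0.455 and 7.09% ± 1.86. The FOXM share was 9.42% ± 0.178 and 11.4% ± 0.0895, and the FOXK share was 16.0% ± 0.681 and 13.9% ± 1.26. For these 5 subfamilies the untreated libraries of the lines did not overlap, while the FOXJ, FOXN and FOXC shares did. Among the smaller subfamilies FOXQ, FOXI, FOXF, FOXG and FOXB did not overlap either, the FOXG and FOXB shares near the floor. No background over other gene families is given for this. Shares of the same sum also depend on each other, and the FOXK level itself was 32.0 ± 3.22 and 29.8 ± 2.82 CPM per kb. With 3 libraries against 3 an exact permutation test cannot give a two-sided p below 0.1, so the shares were not tested.

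**Figure D2:**
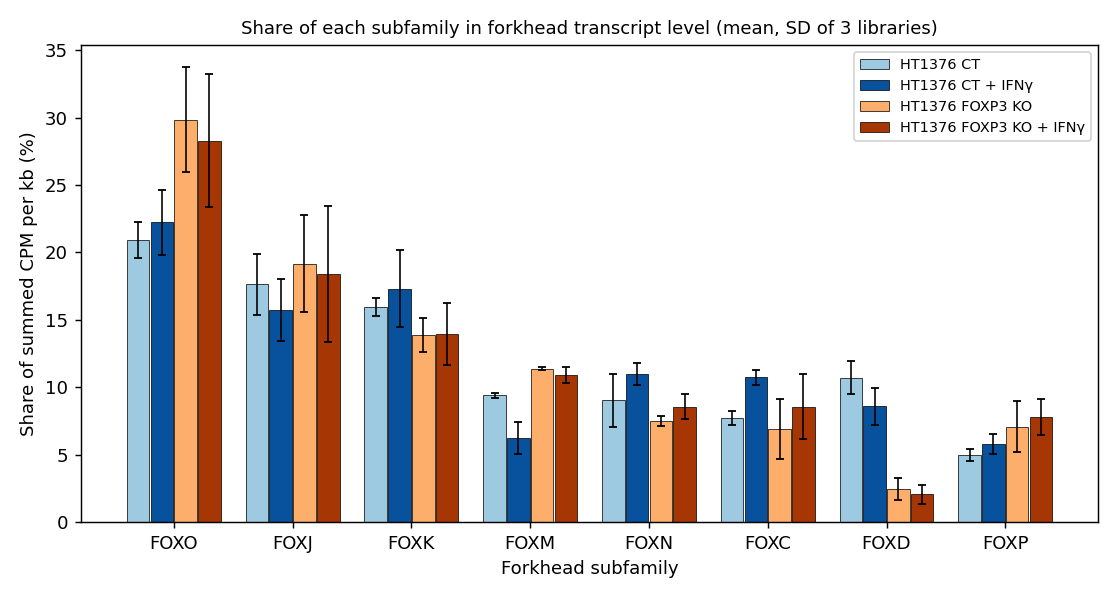
Share of the summed forkhead level (CPM per kb, percent, vertical axis) held by the 8 largest subfamilies in each group, as bars for the mean of 3 libraries with lines for the SD. The FOXO bars rise from 20.9% in untreated HT1376 CT to 29.8% in untreated HT1376 FOXP3 KO while the FOXD bars fall from 10.7% to 2.47%.

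The 2 lines were then compared without IFNγ. Of the 25 forkhead genes with enough counts to test, 13 (52%) differed at an adjusted p under 0.05 in edgeR's quasi-likelihood test, where 32.1% of all genes tested did. Of these, 6 were higher (background 14%) and 7 lower (background 18.2%) in HT1376 FOXP3 KO. That background includes many genes with few counts. Of the 20 expressed forkhead genes 12 were called. Over 17335 genes that reached 1 CPM in a group, 18.3% were higher and 23.9% lower, a background nearer to these. Under IFNγ, in other libraries, 12 of 26 (46.2%) differed against a background of 28.9%, with 6 higher (13.2%) and 6 lower (15.7%). FOXN3, FOXO4, FOXF2, FOXO6, FOXP1 and FOXM1 were higher and FOXO3, FOXN2, FOXD1, FOXQ1 and FOXI1 lower in both comparisons, so 11 genes were called in both and 11 of these had the same direction. Over the forkhead genes tested the median log2 fold change was -0.04 untreated and -0.16 under IFNγ, beside -0.02 and 0.02 over all genes. Without the libraries numbered 12, 15 and 14 forkhead genes were called, but the share of all genes called in those fits is not given, so these counts have no background. With the replicate number as a block, 14 forkhead genes were called in each comparison, beside 36.6% of all genes untreated and 34% under IFNγ.

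FOXN3 gave the largest fold difference of the 20 expressed genes. It encodes a repressor that takes part in the DNA-damage checkpoint, and it lies on chromosome 14 from 89124871 to 89619149 (minus strand). In untreated cells it stood at 1.23, 0.715 and 0.397 CPM in HT1376 CT and at 64.5, 83.0 and 69.7 CPM in HT1376 FOXP3 KO. All HT1376 FOXP3 KO libraries were far above all HT1376 CT libraries (log2 fold change 6.69, SE 0.30, adjusted p = 8.15e-08). Under IFNγ the values were 0.871, 0.231 and 0.112 CPM against 60.3, 84.3 and 69.5 CPM, again with no overlap (log2 fold change 7.58, SE 0.404, adjusted p = 2.63e-07). The antisense transcript FOXN3-AS1 went the same way. It had 0 counts in the 3 untreated HT1376 CT libraries and 29, 6 and 21 in untreated HT1376 FOXP3 KO, at least 24.3-fold higher against a floor of 3 counts over the group (adjusted p = 0.00121, edgeR). Under IFNγ it had 7 counts against 80, which did not pass (ratio 6.77, 95% counting interval 3.14 to 17.4, adjusted p = 0.0617). Annotated antisense transcripts share exonic bases with FOXN3, and the strand setting of the counting is not given in the sources used here, so reads of the 2 strands may be mixed. Its paralog FOXN2, a less studied factor of the same subfamily, was lower instead. In untreated cells FOXN2 stood at 101, 70.5 and 125 CPM in HT1376 CT and at 37.1, 31.2 and 46.2 CPM in HT1376 FOXP3 KO (log2 fold change -1.35, SE 0.203, adjusted p = 0.000448). Under IFNγ it stood at 129, 115 and 141 CPM against 49.3, 51.3 and 57.1 CPM (log2 fold change -1.25, SE 0.125, adjusted p = 2.58e-05). Neither comparison of FOXN2 had overlapping groups.

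The FOXO genes moved in opposite directions. FOXO4, on chromosome X from 71095851 to 71103532, was at 6.91, 6.91 and 8.49 CPM in untreated HT1376 CT and at 164, 102.8 and 182 CPM in untreated HT1376 FOXP3 KO (log2 fold change 4.33, SE 0.217, adjusted p = 1.71e-07). Under IFNγ it was at 5.91, 7.85 and 7.26 CPM against 146, 70.5 and 202 CPM (log2 fold change 4.37, SE 0.343, adjusted p = 4.27e-06). The lowest HT1376 FOXP3 KO library of each comparison was number 12, and it was still above every HT1376 CT library. FOXO3, the most abundant forkhead transcript of HT1376 CT, was lower in HT1376 FOXP3 KO. Its untreated values were 204, 216 and 258 CPM in HT1376 CT and 89.1, 127 and 94.9 CPM in HT1376 FOXP3 KO, without overlap (log2 fold change -1.11, SE 0.154, adjusted p = 0.000257). Under IFNγ they were 246, 279 and 305 CPM against 102, 145 and 109 CPM (log2 fold change -1.18, SE 0.156, adjusted p = 0.000198). FOXO6, the FOXO gene whose protein stays in the nucleus, was rare in HT1376 CT. It was at 0.468, 0.794 and 0.106 CPM in untreated HT1376 CT and at 2.78, 2.05 and 4.43 CPM in untreated HT1376 FOXP3 KO (log2 fold change 2.99, SE 0.615, adjusted p = 0.00354).

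Under IFNγ FOXO6 had 1 count in HT1376 CT and 101 in HT1376 FOXP3 KO, a ratio of 59.8 (95% interval for counting error only, 10.5 to 2385; adjusted p = 0.00298, edgeR). FOXO1, the remaining well-expressed FOXO gene, averaged 42.9 ± 6.83 CPM in untreated HT1376 CT and 31.4 ± 10.1 CPM in untreated HT1376 FOXP3 KO, and the groups overlapped (log2 fold change -0.44, adjusted p = 0.155). With the block FOXO1 was called lower in both comparisons (log2 fold change -0.48 untreated, adjusted p = 0.00428, and -0.49 under IFNγ, adjusted p = 0.0363). FOXO3B is a copy of FOXO3 that matches it at 98.3% of 5430 aligned bases, so its level of 6.97 ± 1.62 and 8.58 ± 1.52 CPM depends on how the authors' counting treated shared reads. Its log2 fold change was 0.31 (adjusted p = 0.357).

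Genes around FOXO activity were read from lists chosen with earlier results known. Of 23 regulators of FOXO proteins, untreated HT1376 FOXP3 KO had 3 at a higher and 9 at a lower level, beside the 14% and 18.2% of all genes given above. The ubiquitin-ligase subunit SKP2 (log2 fold change 1.65) and the kinase subunit PIK3CA (1.33) rose most, and the kinase SGK1 (-1.28) and the 14-3-3 protein YWHAZ (-1.27) fell most. Of 23 FOXO targets tested 8 were higher and 4 lower, beside the same 14% and 18.2%, with a median log2 fold change of 0.21. The death ligand TNFSF10 (log2 fold change 4.48) and the thioredoxin inhibitor TXNIP (2.05) were higher. The cell-cycle and stress genes GADD45A (-1.67) and CDKN1A (-1.53) were lower, so the targets did not share 1 direction.

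Of the FOXP genes, the closest relatives of FOXP3, FOXP1 passed in both comparisons of the lines and FOXP4 in untreated cells only. FOXP1, which can pair with the other FOXP proteins, lies on chromosome 3 from 70954693 to 71583978 (minus strand). In untreated cells it stood at 45.0, 44.9 and 32.2 CPM in HT1376 CT and at 82.7, 120.0 and 64.8 CPM in HT1376 FOXP3 KO (log2 fold change 1.15, SE 0.218, adjusted p = 0.00217). Under IFNγ it stood at 72.8, 60.7 and 48.5 CPM against 102, 117 and 82.6 CPM (log2 fold change 0.78, SE 0.183, adjusted p = 0.00834). Every HT1376 FOXP3 KO library was above every HT1376 CT library in both comparisons. A gene annotated on the same strand shares 2539 exonic bases with FOXP1, and how reads there were assigned is not given in the sources used here. FOXP1-IT1, a transcript within FOXP1 named here after its values were seen, averaged 8.53 ± 2.49 CPM in untreated HT1376 CT and 20.6 ± 7.04 in untreated HT1376 FOXP3 KO. FOXP4, the other expressed FOXP gene, was at 22.1, 23.4 and 31.0 CPM in untreated HT1376 CT and at 16.0, 17.1 and 17.5 CPM in untreated HT1376 FOXP3 KO (log2 fold change -0.59, adjusted p = 0.0167). Under IFNγ its values were 22.3, 25.2 and 24.7 CPM against 16.1, 14.3 and 20.6 CPM, which did not overlap and did not pass the test (log2 fold change -0.45, SE 0.176, adjusted p = 0.080; with the block, adjusted p = 0.0409). The untreated call of FOXP4 was lost without library 13 of HT1376 CT (log2 fold change -0.39, adjusted p = 0.102) and without library 11 or 13 of HT1376 FOXP3 KO (adjusted p = 0.0828 and 0.0509).

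FOXP2, known from neurons, had 15 counts in all 12 libraries. It was at 0 CPM in the 3 untreated HT1376 CT libraries and at 0.0428, 0.268 and 0 CPM in untreated HT1376 FOXP3 KO. Under IFNγ it was at 0, 0.462 and 0.112 CPM against 0.0669, 0 and 0.196 CPM. The groups with any count overlapped. Of 18 proteins that FOXP factors bind, 0 were at a higher and 4 at a lower transcript level in untreated HT1376 FOXP3 KO, a share near the 18.2% of all genes that were lower. The largest fall was that of the NFAT factor NFATC2 (log2 fold change -3.08, adjusted p = 3.49e-06), followed by the corepressor CTBP2 (-0.54, adjusted p = 0.00411). At CD274 itself the level was 95.8, 44.6 and 116 CPM in untreated HT1376 CT and 15.4, 15.9 and 24.2 CPM in untreated HT1376 FOXP3 KO.

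FOXM1, the mitotic forkhead factor, was higher in HT1376 FOXP3 KO by a small step. Untreated values were 65.9, 62.3 and 73.1 CPM in HT1376 CT and 85.2, 86.3 and 89.6 CPM in HT1376 FOXP3 KO (log2 fold change 0.39, SE 0.107, adjusted p = 0.0172). Under IFNγ they were 56.9, 35.5 and 51.6 CPM against 77.6, 84.5 and 91.9 CPM (log2 fold change 0.85, SE 0.165, adjusted p = 0.00263). The groups did not overlap in either comparison. FOXM1 shares 782 exonic bases with ITFG2 on the other strand. ITFG2 itself gave a log2 fold change of 0.98 between the untreated lines. Whether its reads enter the FOXM1 counts was not tested. The 20 FOXM1 targets tested did not follow it in untreated cells, where 0 rose and 5 fell with HT1376 FOXP3 KO, with a median log2 fold change of -0.23. Over all genes 14% were higher and 18.2% lower. PLK1 (log2 fold change -0.95, adjusted p = 0.00655) and CDC25B (-0.89, adjusted p = 0.00076), which promote entry into mitosis, fell most. Under IFNγ 2 of the targets were higher and 0 lower, beside 13.2% and 15.7% of all genes, with a median of 0.26.

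**Figure D3:**
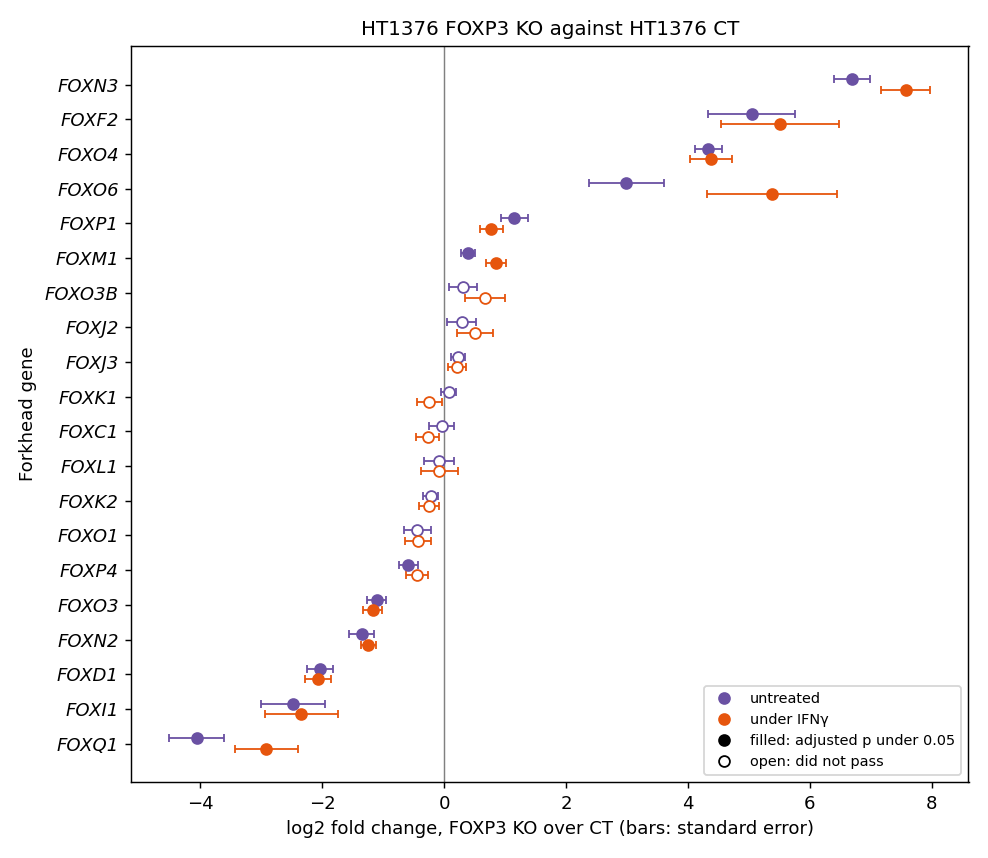
log2 fold change of HT1376 FOXP3 KO over HT1376 CT (horizontal axis, bars for the standard error) of the 20 expressed forkhead genes, untreated and under IFNγ, with filled points for an adjusted p under 0.05. FOXN3 lies highest, at 6.69 and 7.58, and FOXQ1 lowest, at -4.06 and -2.92, and the 8 genes from FOXO3B to FOXO1 have open points in both comparisons.

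Forkhead factors of tissue development were among the largest differences in both directions. FOXQ1, FOXF2 and FOXC1 lie next to each other on chromosome 6, at 1312098 to 1314758, 1389576 to 1395603 and 1609915 to 1613897. FOXQ1, an epithelial factor, was at 7.14, 9.37 and 6.08 CPM in untreated HT1376 CT and at 0.171, 0.446 and 0.749 CPM in untreated HT1376 FOXP3 KO (log2 fold change -4.06, SE 0.446, adjusted p = 4.81e-05). Its neighbour FOXF2, a factor of gut and lung mesenchyme, went the other way. It was at 0.117, 0.0794 and 0.106 CPM in untreated HT1376 CT and at 2.44, 6.96 and 1.55 CPM in untreated HT1376 FOXP3 KO. These values rest on 7 and 162 counts, a ratio of 30.1 with a 95% counting interval of 14.3 to 76.0 (adjusted p = 0.00030, edgeR). FOXC1, a factor of mesoderm and eye development, averaged 61.8 ± 7.28 and 59.3 ± 18.3 CPM, and its groups overlapped (log2 fold change -0.04, adjusted p = 0.903).

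Under IFNγ the same 3 genes kept that arrangement. FOXQ1 was at 6.49, 7.39 and 4.97 CPM in HT1376 CT and at 0.334, 0.320 and 1.43 CPM in HT1376 FOXP3 KO (log2 fold change -2.92, SE 0.516, adjusted p = 0.00144). FOXF2 had 2 counts against 138, a ratio of 40.9 (95% counting interval 11.1 to 341; adjusted p = 0.00137, edgeR). FOXC1 gave a log2 fold change of -0.27 (adjusted p = 0.333). The fitted log2 fold change of FOXF2, 5.52, was 8.64 without library 11 of HT1376 CT with IFNγ, which held its 2 counts, and that of FOXQ1 was -4.13 without library 13 of HT1376 FOXP3 KO with IFNγ.

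FOXD1, a factor of kidney stroma, lies on chromosome 5 from 73444827 to 73448777 (minus strand). It was at 58.4, 45.9 and 56.1 CPM in untreated HT1376 CT and at 9.81, 17.9 and 11.2 CPM in untreated HT1376 FOXP3 KO (log2 fold change -2.04, SE 0.214, adjusted p = 3.45e-05). Under IFNγ it was at 44.7, 51.9 and 41.6 CPM against 8.36, 14.3 and 9.59 CPM (log2 fold change -2.07, SE 0.216, adjusted p = 3.47e-05). Every HT1376 CT library was above every HT1376 FOXP3 KO library. FOXI1, the master factor of ion-transporting cells in kidney, ear and airway, was at 3.51, 5.96 and 4.87 CPM in untreated HT1376 CT and at 0.428, 1.87 and 0.461 CPM in untreated HT1376 FOXP3 KO (log2 fold change -2.48, SE 0.522, adjusted p = 0.00405). Under IFNγ it was at 1.45, 1.62 and 2.51 CPM against 0.134, 0.427 and 0.489 CPM (log2 fold change -2.34, SE 0.594, adjusted p = 0.0124). That last call was lost without library 13 of HT1376 CT with IFNγ (adjusted p = 0.0899).

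Of 12 noncoding neighbours of forkhead genes 6 could be tested between the untreated lines, and 1 was higher and 2 were lower, beside 14% and 18.2% of all genes. Among the low genes, FOXA3 was called under IFNγ only. FOXA3, a factor of liver and gut, had 20 counts against 3 under IFNγ, a ratio of 11.3 in favour of HT1376 CT (95% counting interval 3.34 to 59.2; adjusted p = 0.0344, edgeR). This call was lost with the block (adjusted p = 0.0861) and without library 11 or 13 of either group, at adjusted p = 0.0895 and 0.0952 for HT1376 CT with IFNγ and 0.0900 and 0.127 for HT1376 FOXP3 KO with IFNγ. FOXD2, FOXD4, FOXE3, FOXF1, FOXH1, FOXN1 and FOXP2 had between 6 and 37 counts in all. FOXE3 and FOXF1 had too few to be tested in the main fits, and the others gave no call where they were tested.

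In neither comparison of the lines did 8 expressed genes pass, and they include the FOXK and FOXJ genes, of which FOXJ3 was second in the order of levels per kb in both untreated lines. FOXK1 and FOXK2, repressors of autophagy genes and activators of glycolysis genes, averaged 157 ± 10.5 and 94.4 ± 12.5 CPM in untreated HT1376 CT and 163 ± 20.2 and 80.1 ± 6.09 CPM in untreated HT1376 FOXP3 KO. Of 12 FOXK partner genes tested, 3 were higher and 1 lower, in all near the 32.1% of all genes called, among them the SIN3 subunit SUDS3 (log2 fold change 0.68) and DVL1 (-1.49), which FOXK proteins carry into the nucleus. FOXJ3 averaged 136 ± 5.57 and 157 ± 20.5 CPM and FOXJ2 50.97 ± 13.0 and 61.7 ± 20.9 CPM. FOXJ2 was called under IFNγ with the block (log2 fold change 0.51, adjusted p = 0.00216). FOXL1, a factor of gut mesenchyme, averaged 8.50 ± 1.48 and 7.92 ± 2.02 CPM. FOXJ1, the master factor of motile cilia, had 6 counts in all. Of 10 motile cilia genes tested 2 were higher and 3 lower, beside 14% and 18.2% of all genes, with SPAG17 (log2 fold change 6.39) and DNAH5 (-7.66) at the ends.

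Luminal urothelial genes, among which FOXA1 acts, were counted beside these. Of 14 tested, 3 rose and 6 fell in untreated HT1376 FOXP3 KO, beside 14% and 18.2% of all genes, and the median log2 fold change was -0.41. PPARG (log2 fold change 1.45, adjusted p = 4.24e-05) and its partner RXRA (0.47, adjusted p = 0.0103) rose most, and the oestrogen receptor ESR1 (-5.56, adjusted p = 1.90e-06) and the barrier factor GRHL3 (-3.74, adjusted p = 2.14e-05) fell most. GATA3 was lower (-0.68, adjusted p = 0.000994).

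The response to IFNγ was asked within each line. All 6 genes chosen to check the treatment rose in both lines, CIITA by 9.33 and IDO1 by 9.25 on the log2 scale in HT1376 CT. Among 24 forkhead genes tested in HT1376 CT, 1 passed (4.17%) in the main fit, which leaves the replicate number out, beside 5.35% of all genes. With that number as a block 8 passed, beside 18.6% of all genes, and these are given below. FOXC1 was at 63.2, 53.9 and 68.3 CPM without and at 98.9, 82.2 and 95.8 CPM with IFNγ, without overlap (log2 fold change 0.60, SE 0.125, adjusted p = 0.0151). At an unadjusted p under 0.05 there were 7 forkhead genes, and DESeq2 called 4. For neither count is a share of all genes given, so they have no background. FOXC1 did not pass without library 11 or 12 of untreated HT1376 CT (adjusted p = 0.0557 and 0.0543) or without library 11 or 13 of HT1376 CT with IFNγ (0.0508 and 0.0717). Without the libraries numbered 12, 2 forkhead genes passed, again with no share of all genes given.

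Libraries with the same number deviated together within a line, and with the replicate number as a block 8 forkhead genes passed in HT1376 CT, in a fit that called 18.6% of all genes. FOXC1 (log2 fold change 0.60), FOXP1 (0.61), FOXK1 (0.48), FOXN2 (0.42) and FOXO3 (0.31) were higher with IFNγ, with adjusted p-values from 4.31e-10 to 9.08e-05. FOXM1 (-0.46, adjusted p = 3.94e-05), FOXI1 (-1.23, adjusted p = 0.000968) and FOXO3B (-0.64, adjusted p = 0.0388) were lower. With bias-adjusted deviance added to the block, FOXO3B lost its call. The adjusted p in that fit was 0.0109 for FOXM1 and 0.000434 for FOXP1. FOXP1 was at 45.0, 44.9 and 32.2 CPM without and 72.8, 60.7 and 48.5 CPM with IFNγ, higher in 3 of 3 pairs, and without the block its adjusted p was 0.0849. FOXM1 was at 65.9, 62.3 and 73.1 CPM without and 56.9, 35.5 and 51.6 CPM with IFNγ, lower in 3 of 3 pairs. Of the 20 FOXM1 targets 0 were higher and 5 lower without the block, with a median log2 fold change of -0.66, NEK2 (-0.94, adjusted p = 0.00186) and CENPF (-0.77, adjusted p = 0.0277) among them. Of the 23 FOXO targets 6 were higher and 2 lower, among them TNFSF10 (log2 fold change 3.17), SOD2 (1.93), CAT (-0.80) and SESN3 (-0.70). Without the block 5.35% of all genes were called in either direction.

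In HT1376 FOXP3 KO 0 of 24 forkhead genes passed in edgeR's quasi-likelihood test, beside 0.982% of all genes. At an unadjusted p under 0.05 there was 1, FOXN2, and DESeq2 called 0. With the block, where 5.53% of all genes passed, 4 were higher with IFNγ, namely FOXN2 (log2 fold change 0.48, adjusted p = 5.16e-06), FOXC1 (0.35, adjusted p = 0.000395), FOXP1 (0.23, adjusted p = 0.0245) and FOXO3 (0.21, adjusted p = 0.0331). With bias-adjusted deviance added to the block, FOXP1 and FOXO3 lost their calls. FOXN2 was at 37.1, 31.2 and 46.2 CPM without and at 49.3, 51.3 and 57.1 CPM with IFNγ, which did not overlap. FOXN3 and FOXO4, both called higher in this line than in HT1376 CT, averaged 72.4 ± 9.53 and 149.6 ± 41.5 CPM without and 71.4 ± 12.1 and 139.7 ± 66.1 CPM with IFNγ.

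**Figure D4:**
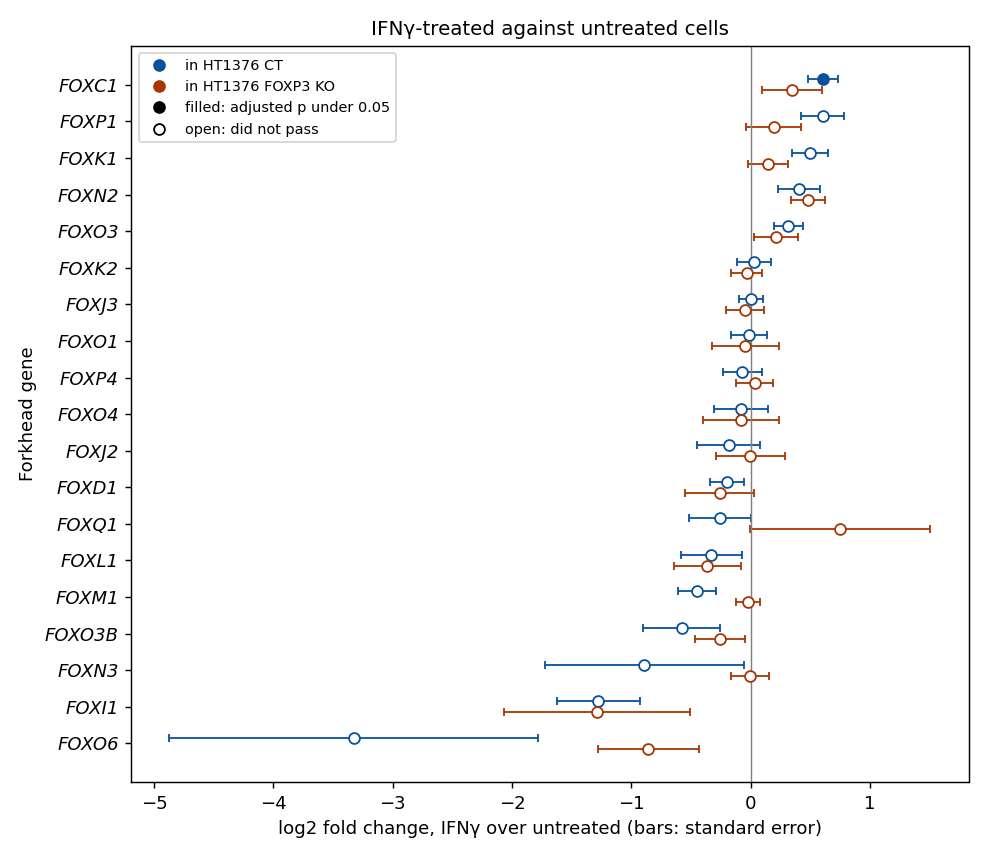
log2 fold change of IFNγ-treated over untreated cells (horizontal axis, bars for the standard error) of the expressed forkhead genes tested in both lines, fitted without the replicate block, with filled points for an adjusted p under 0.05. FOXC1 in HT1376 CT (0.60) has the only filled point, and FOXO6 and FOXN3, which are near 0 counts in HT1376 CT, have the longest bars there.

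Whether the lines differ in their IFNγ response was asked with an interaction term fitted over the 12 libraries. None of 27 forkhead genes tested passed in edgeR's quasi-likelihood test, beside 0.111% of all genes. At an unadjusted p under 0.05 there were 0, with the block 0 (1.21% of all genes), and DESeq2 called 0. The smallest adjusted p was 0.822, that of FOXM1 (difference of the 2 log2 fold changes 0.42, SE 0.206), and for FOXP1 the difference was -0.41 (SE 0.307, adjusted p = 0.911). Differences of this size were not detectable with 3 libraries per group.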

How the data were processed

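RNA was taken from HT1376 CT and HT1376 FOXP3 KO with Trizol, ribosomal RNA was removed, and libraries were made with the KAPA RNA HyperPrep Kit. The authors aligned reads to GRCh38 with STAR (version 2.7.11a per the submitters' processing notes), removed Mycoplasma reads with Kraken and deposited raw counts per gene from htseq-count, with no normalisation. Strand and multiple-mapping settings are not given in the sources used here. Library totals of 4490684 to 39270042 counts set the precision.

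From these counts, edgeR 4.0.16 in R 4.3.3 was run with TMM scaling on genes with at least 10 counts in the libraries fitted. Each comparison was fitted on its own 6 libraries, and the interaction on 12. The quasi-likelihood test (glmQLFit, glmQLFTest) was adjusted by Benjamini-Hochberg over all genes tested, and calls have an adjusted p under 0.05. The study used DESeq2, here an alternative (1.42.0). Scripts were tested on simulated data. Lengths and positions came from GENCODE 44, and promoter sequences from RefSeq (GRCh38.p14). Counting intervals (exact, 95%) and floors cover counting error only.

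Members and lists were chosen with earlier results of these data known. Expressed members called in any comparison, and FOXP1, FOXP2, FOXP4 and FOXA1, are given in full. Other members get means or counts, and 1 called member and 1 motif site are not reported here. Of each related list the 2 called genes with the largest rise and the 2 with the largest fall were eligible for naming, and FOXP3, CD274, GATA3 and PPARG were named always.

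Same-numbered libraries deviated together within a line (r of deviations from the group means over 27806 genes, 0.139 to 0.152 in HT1376 CT and 0.180 to 0.267 in HT1376 FOXP3 KO). The numbers can thus be read as pairs for the IFNγ comparisons. The main IFNγ fits leave this pairing out, and the fits with the replicate block use it. Between the lines the check depended on the genes used. Over those 27806 genes r was 0.0471 to 0.136 untreated and 0.0481 to 0.122 under IFNγ, and over the 18286 with at least 100 counts it was 0.101 to 0.258 and 0.101 to 0.205, each over 0.1. Blocked values are therefore given beside the results of the lines whose call they change. No library was a copy of another.

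The alternatives were RLE scaling, other filters, DESeq2, bias-adjusted deviance, the replicate block, fold thresholds, all libraries in 1 fit, and leaving libraries out.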

Additional observations from a re-analysis of the deposited data

How the results depend on the processing

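The 13 calls between the untreated lines became 11 to 14 with single libraries left out and 8 with an absolute log2 fold change over 2, and the 12 under IFNγ became 11 to 13 and 8. Of 194 recomputed values of the 13 called genes 189 stayed called and 5 did not, and of 178 values of the 12 called under IFNγ 170 stayed called and 8 did not. None of these changed sign, and 10 genes of each comparison kept their call in every setting that tested them, the fold thresholds aside. FOXO6 under IFNγ was not tested with the filter of filterByExpr. FOXM1 untreated lost its call with all 12 libraries in 1 fit (adjusted p = 0.0516). The replicate block gave 14 calls in each, with FOXO1 added untreated, and FOXO1, FOXP4 and FOXJ2 added and FOXA3 lost under IFNγ. It did not change another call. The IFNγ response of HT1376 CT depended most on the processing. Its 1 call became 6 with no filter, 4 with DESeq2, 8 with the replicate block, 7 with the block and bias-adjusted deviance, 2 without the libraries numbered 12, 0 with all 12 libraries in 1 fit and with a log2 fold change over 1 or over 2, and 0 to 2 with single libraries left out. The 0 calls of IFNγ in HT1376 FOXP3 KO became 4 with the block and 2 with the block and bias-adjusted deviance. The cause was not tested. The interaction gave 0 calls in every setting run. Shares of all genes are given for the main fits and the block only, so the counts from the other settings have no background. The block with bias-adjusted deviance and leaving out the libraries numbered 12 were added after seeing the data. Expressed genes numbered 20, 21 at a threshold of 0.5 CPM and 17 at 5 CPM. Signs turned only for uncalled differences. FOXC1 between the untreated lines ranged from -0.20 to 0.21 with single libraries left out and was 0.10 without those numbered 12. With single libraries left out, FOXP4 ranged from -0.16 to 0.10 for IFNγ in HT1376 CT, from -0.10 to 0.12 for IFNγ in HT1376 FOXP3 KO and from -0.021 to 0.26 for the interaction, and for IFNγ in HT1376 FOXP3 KO FOXM1 ranged from -0.058 to 0.022 and FOXP1 from -0.0080 to 0.48. Depth limits the 25 genes below the expression threshold and the values of FOXF2, FOXO6 and FOXN3 in HT1376 CT.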

Other observations

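The genes that flank the forkhead genes were read in the untreated comparison of the lines, 5 expressed and tested genes on each side. Over 17335 such genes 18.3% stood higher in HT1376 FOXP3 KO and 23.9% stood lower. Around FOXN3, 7 of 10 neighbours were higher and 0 lower, with a median log2 fold change of 0.84. Around FOXP1, 6 were higher and 0 lower, with a median of 0.95. These neighbours include FOXN3-AS1 and FOXP1-IT1, transcripts of the same loci. Around FOXO4, 5 were higher and 1 lower, and the same counts were found around FOXJ2, which gave no call itself. Around FOXF2, which was higher in HT1376 FOXP3 KO, 0 were higher and 3 lower. Around FOXI1, which was lower, 4 were higher and 5 lower, and around FOXD1 0 were higher and 3 lower. Around the other expressed forkhead genes 0 to 3 were higher and 0 to 4 lower.

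The libraries numbered 12 lay outside numbers 11 and 13 on the same side in all 4 groups for 4 of the 14 forkhead genes with at least 20 counts in every library. FOXJ2 was above both others in each group, by a mean of 0.77 on the log2 scale against their mean. FOXC1 (-0.52), FOXK1 (-0.42) and FOXK2 (-0.32) were below both others in each group. The share of all genes outside both others is not given, so this count has no background. By the looser rule of number 12 against the mean of the others, 2 of the 14 were higher in all 4 groups and 5 lower. Over 10670 genes with as many counts 13.0% were higher and 31.0% lower, so the forkhead genes were near genes in general.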
